A study of Schizosaccharomyces pombe with 4 samples.

Results

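The regions described here are the XUTs of *S. pombe* that lie wholly inside the body of a gene transcribed from the opposite strand. A XUT was kept where it overlaps a protein-coding gene of the opposite strand by 50 nt or more and covers neither the first nor the last nt of the gene with which it shares most nt. The choice used positions only. It gave 754 of the 1638 XUTs of the table, which lie in 641 genes. NET-Seq, which sequences RNA held by elongating RNAPII, was performed on 2 biological replicates of YAM2507, a strain which lacks *exo2* and has the Rpb3 subunit of RNAPII fused to Flag. Each replicate number has a nascent library (IP, RNA purified with Rpb3-flag) and a total library (input, RNA without the purification). Both kinds of library share the *exo2* deletion and the tag. Libraries of a strain with *exo2*, or without the tag, were not analysed here, so whether these XUTs depend on Exo2 cannot be checked with these values.

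XUTs are long non-coding RNAs made by RNAPII that the cytoplasmic 5′-3′ exoribonuclease Exo2 (Xrn1 in budding yeast) degrades. Many are antisense to a gene, and an antisense transcript that starts within a gene reads the other strand of the DNA duplex along which the gene's own polymerases move. Where such a XUT crosses the gene start it passes the promoter of the mRNA, while a XUT that stays inside the body does not reach it.

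The bases around the starts of 4 of these XUTs show what this placement means in sequence. They are *XUT0794*, which the study follows opposite the catalase gene *ctt1*, *XUT1322* opposite *puf5* (a pumilio family RNA-binding protein), *XUT0171* opposite *ght4* (a hexose transporter) and *XUT0355* opposite *taf73* (a TFIID subunit). Each line gives the 60 bases before the start in lower case and the first 30 bases of the XUT in capitals, 5′ to 3′ on the strand of the XUT. All 90 bases of each are the reverse complement of coding sequence of the gene. The bases come from the RefSeq genome ASM294v3, at the positions of the deposited table, which is on ASM294v2.
XUT0794, chromosome III:56940-57029, + strand: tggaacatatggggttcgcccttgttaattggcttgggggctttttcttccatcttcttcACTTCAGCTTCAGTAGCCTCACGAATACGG
XUT1322, chromosome I:759476-759565, + strand: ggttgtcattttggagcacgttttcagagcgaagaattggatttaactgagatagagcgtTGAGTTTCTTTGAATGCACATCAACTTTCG
XUT0171, chromosome II:158267-158356, - strand: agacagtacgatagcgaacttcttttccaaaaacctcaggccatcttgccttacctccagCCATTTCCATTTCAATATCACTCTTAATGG
XUT0355, chromosome II:3035667-3035756, - strand: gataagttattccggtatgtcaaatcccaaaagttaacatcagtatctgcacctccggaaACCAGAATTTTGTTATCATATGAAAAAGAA

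A short XUT can be shown whole. *XUT0254*, of 216 nt, is opposite coding sequence of *mis19* (needed to load the centromeric histone) over all its length. Below it stand the first 90 bases of the longest coding stretch opposite *XUT0584*, *XUT0672* and *XUT1309*, whose values set them apart in the comparison of IP and input.
XUT0254, chromosome II:1323805-1324020, - strand: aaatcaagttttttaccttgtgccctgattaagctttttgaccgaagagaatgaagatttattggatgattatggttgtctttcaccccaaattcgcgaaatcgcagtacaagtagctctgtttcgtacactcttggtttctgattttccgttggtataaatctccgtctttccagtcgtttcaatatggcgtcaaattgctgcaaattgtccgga
XUT0584 opposite *ifa38*, chromosome I:2283275-2283364, - strand: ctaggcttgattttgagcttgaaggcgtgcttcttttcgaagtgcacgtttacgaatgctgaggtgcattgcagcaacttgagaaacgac
XUT0672 opposite *slt1*, chromosome I:3616812-3616901, - strand: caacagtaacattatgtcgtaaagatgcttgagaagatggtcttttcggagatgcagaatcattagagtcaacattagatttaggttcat
XUT1309 opposite *psf3*, chromosome I:528124-528213, + strand: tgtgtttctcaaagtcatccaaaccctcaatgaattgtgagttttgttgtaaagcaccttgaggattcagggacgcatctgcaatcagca

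The depth of these regions is low. The libraries hold 3338808 and 6962801 reads in the IP and 10172688 and 9114952 in the input, of which tRNA genes take 6.80% to 7.18% in the IP and 73.9% to 75.0% in the input. For a XUT inside a gene the median was 4 reads in IP replicate 1, 8 in IP replicate 2 and 1 in each input. No read fell on 109 and 34 of the 754 XUTs in the IP and on 239 and 285 in the input, which allows up to 3 reads for each. For the genes that hold them it was 141 and 290 in the IP, and 84 and 64.5 in the input. At least 10 reads in each IP library were reached by 158 of the XUTs. Over these 158, the nascent level of the XUT in replicate 1 followed that in replicate 2 with Pearson's r = 0.88 (rho = 0.85), and over all 754 with r = 0.58 (rho = 0.73), as a description across regions. The intervals given for single regions cover counting error only.

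The XUTs inside genes were short and lay towards the 5′ side of the gene. The rule itself favours short XUTs and long genes, because the XUT must fit within the gene. It also thins midpoints near both ends of the gene, so the lengths below are in part set by the choice. Their median length was 434.5 nt (quartiles 302 and 716 nt), beside 823 nt for the 344 XUTs that cross a gene start, 1256 nt for the 107 that cross only a 3′ end and 518 nt for the 433 with no opposite gene. The shortest, *XUT0833* opposite *xks1* (a xylulose kinase), has 200 nt, and the longest, *XUT0051* opposite *mug190* (a membrane tethering protein), has 4520 nt of the 4619 nt of its gene. The genes had a median of 2345 nt, and a XUT covered a median of 20.5% of its gene. The midpoint lay in the 5′ part of the gene for 447 of 754 (59.3%). The XUT ended a median of 460 nt downstream of the gene start and began a median of 902 nt upstream of the gene's 3′ end. The XUT ended within 200 nt of the gene start in 195 cases and began within 200 nt of the gene's 3′ end in 109. Most were opposite coding sequence, wholly in 294 cases (39.0%), with no coding nt in 59 and with at least 1 intron nt in 198.

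**Figure D1:**
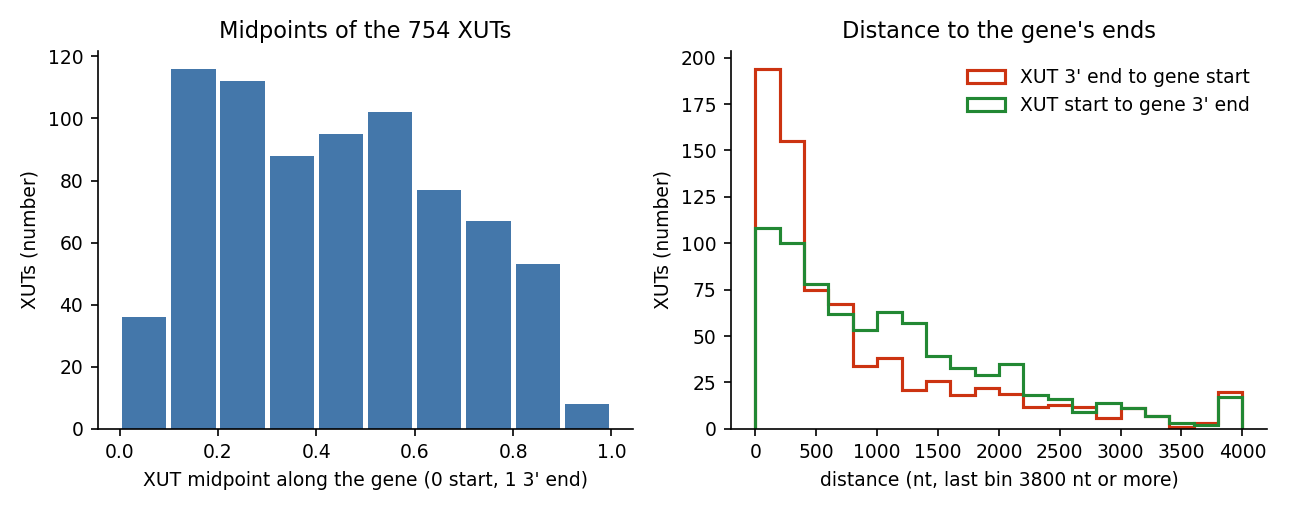
Left, the number of XUTs (y axis) in each of 10 equal parts of the gene by the XUT midpoint (x axis, 0 at the gene start and 1 at its 3′ end). Right, the number of XUTs (y axis) by the distance in nt (x axis) from the XUT 3′ end to the gene start (red) and from the XUT start to the gene 3′ end (green), with longer distances gathered in the last bin. The second part from the gene start holds the most XUTs, 116, and the last part the fewest, 8. The rule keeps only XUTs that reach neither end of the gene, which thins midpoints near both ends.

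Sequence motifs at the ends were read as a description. The TATA element TATAAA, on the strand of the XUT, occurred within 100 bases before the start of 64 of the 754 XUTs (8.49%), beside 4.38% of 100-base windows at their midpoints, 12.6% of windows before the starts of all 5118 protein-coding genes of chromosomes I to III and 6.40% before XUTs that cross a gene start. It occurred before 16 of the 107 that cross only a 3′ end and before 11.8% of those with no opposite gene. Over all XUTs it was 9.34%, near the share of the XUTs inside genes. The poly(A) signal AATAAA occurred in the last 60 bases of 72 (9.55%), beside 4.77% of 60-base windows at their midpoints, 18.9% of gene ends, 18.0% of XUTs that cross a gene start, 24.3% of those that cross only a 3′ end and 13.7% of those with no opposite gene. The median GC content was 37.6% for XUTs inside genes, 35.7% for those across a gene start, 34.8% for those across only a 3′ end, 33.7% for those with no opposite gene and 36.7% for genes. Before the starts of *XUT1424* opposite *mst2* (a histone acetyltransferase) and *XUT0518* opposite *gto2*, TATAAA (capitals) lies in the coding sequence of the gene, read from its other strand. The same holds for AATAAA (capitals) in the last 60 bases of *XUT0722* opposite *pmc3* (a Mediator subunit) and *XUT1545* opposite *eng2* (an endoglucanase). For each motif, these XUTs have the highest mean IP density among those that carry it in a window wholly opposite coding sequence. Only XUTs with 10 or more reads in each IP library were considered.
XUT1424, 100 bases before the start, chromosome I:2366419-2366518, + strand: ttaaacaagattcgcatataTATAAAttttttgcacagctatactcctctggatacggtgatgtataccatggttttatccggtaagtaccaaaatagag
XUT0518, 100 bases before the start, chromosome I:1122631-1122730, - strand: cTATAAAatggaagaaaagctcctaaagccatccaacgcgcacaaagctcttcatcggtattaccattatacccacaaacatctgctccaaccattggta
XUT0722, last 60 bases, chromosome I:4491279-4491338, - strand: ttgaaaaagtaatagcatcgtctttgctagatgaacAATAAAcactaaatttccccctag
XUT1545, last 60 bases, chromosome I:4356316-4356375, + strand: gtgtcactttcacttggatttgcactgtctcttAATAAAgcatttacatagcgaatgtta

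The table does not give each XUT reads of its own. On the same strand, 300 of the 754 share at least 1 nt with another annotated feature, among them 197 with an ncRNA gene, 77 with a protein-coding gene, 32 with a non-coding transcription unit (nc-TU) and 2 with a tRNA gene. The other 454 share none. Reads in a shared stretch are counted for both features. The XUTs with a tRNA gene, *XUT1390* and *XUT0681*, have the highest mean IP density of all and are treated first.

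*XUT1390*, opposite the 3′ part of *SPAC105.03c* (annotated as a transcription factor), had 931 and 1108 reads in the IP and 1057 and 899 in the input. The tRNA gene *SPATRNATYR.01* that it overlaps has 929, 1103, 1055 and 898 reads in the same libraries. *XUT0681*, opposite the 5′ part of *ppk3* (a kinase-like protein with HEAT repeats), had 95 and 174 reads in the IP and 656 and 776 in the input, beside 86, 153, 648 and 768 reads of *SPATRNAVAL.04*. Nearly all reads of both XUTs are thus in number those of a tRNA gene, and reads over the shared bases count for both features. The lines show the last 15 bases of each tRNA gene in capitals and the next 15 bases of the XUT, where the tRNA gene ends.
XUT1390, chromosome I:1746533-1746562, + strand: TTCTGGCTCAGGAGAtcttttttgcttcca
XUT0681, chromosome I:3710724-3710753, - strand: GTCTTGGCACGATCAaatatttttgtaaga

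The median nascent level of XUTs inside genes was below that of XUTs across a gene start or across only a 3′ end. It was only slightly below that of XUTs with no opposite gene. The level is log2 of the density (normalized reads per nt) plus 0.000118, the smallest positive IP density. The median over the 754 was -6.93 in IP replicate 1 and -6.99 in replicate 2, beside -6.67 and -6.67 for XUTs across a gene start, -5.88 and -5.71 for those across only a 3′ end and -6.87 and -6.85 for those with no opposite gene. The same order was seen in both replicates, and the median over all 5129 protein-coding genes was -3.53 and -3.58. The 454 XUTs with no other feature on their strand had medians of -7.40 and -7.35. The 221 that share their strand with an ncRNA gene or nc-TU but no gene had -6.54 and -6.47. The placements differ in how often a XUT shares its strand with another feature, which held for 39.8% of XUTs inside genes, 58.4% of those across a gene start, 74.8% of those across only a 3′ end and 55.7% of those with no opposite gene. The part of this in the order of the levels was not tested. These are medians over regions of 2 libraries, and the differences between placements were not tested.

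The level of the XUT differed with its place in the gene (plot of XUT level by position). For the 296 XUTs whose midpoint lies in the 5′ part of a gene cut into 3 equal parts, the median level was -7.65 and -7.50 in IP replicates 1 and 2. It was -6.70 and -6.73 for the 310 in the middle part and -6.47 and -6.36 for the 148 in the 3′ part. The order was the same in both replicates and in the 454 with no other feature on their strand, with -7.87 and -7.93, -7.19 and -7.25, and -6.72 and -6.48. The median nascent level of the genes differed less between the parts, at -4.13, -4.08 and -3.87. The XUTs of the middle part were longer (median 574 nt) than those of the 5′ part (387.5 nt) and the 3′ part (400.5 nt). These levels rest on few reads. From the 5′ to the 3′ part, the median XUT had 2, 5 and 5.5 reads in IP replicate 1 and 5, 12 and 12 in replicate 2. With no other feature on the strand it had 1, 3 and 5 reads in replicate 1 and 4, 8 and 10 in replicate 2.

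The level of the XUT did not follow that of its gene. Across the 754 pairs, Pearson's r was -0.04 (rho = -0.04), and across the 158 pairs with 10 or more XUT reads in each IP library it was -0.07 (rho = -0.11). These are descriptions across pairs that share their libraries. In 5 groups of 150 or 151 pairs in order of the gene's signal, the median gene level went from -5.66 to -2.94, while the median XUT level was -6.70, -7.15, -7.45, -7.17 and -6.96.

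**Figure D2:**
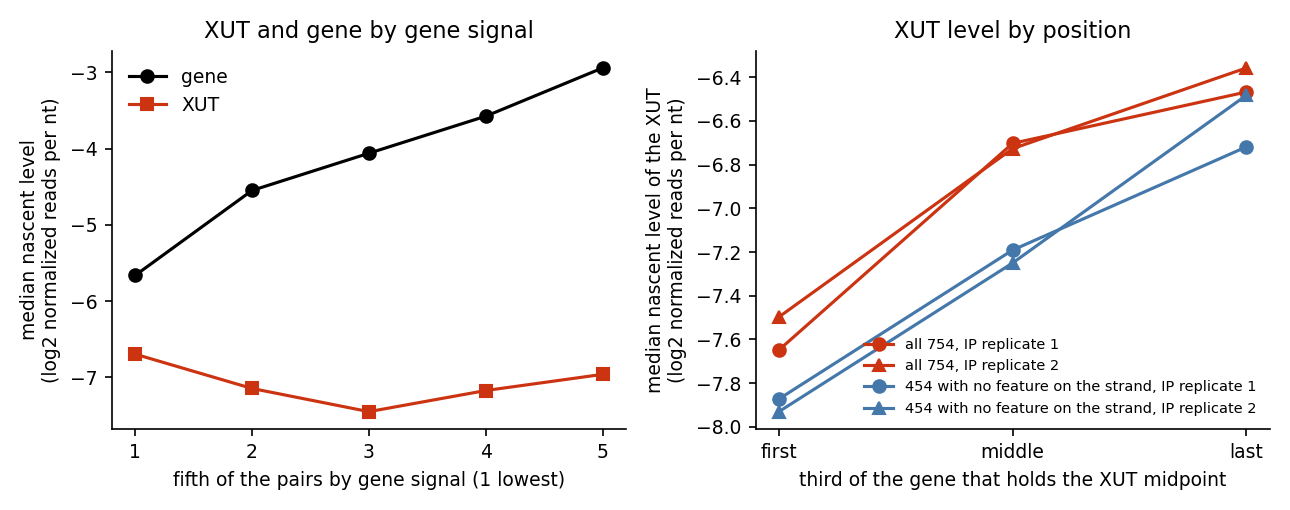
Left, the median nascent level (y axis, log2 normalized reads per nt) of genes (black) and XUTs (red) in 5 groups of pairs from the lowest to the highest gene signal (x axis). Right, the median nascent level of XUTs (y axis) by the part of the gene that holds their midpoint (x axis), for each IP replicate, over all 754 (red) and over the 454 with no other feature on their strand (blue). The gene line runs from -5.66 to -2.94 while the XUT line stays between -7.45 and -6.70, and the XUT level is lowest at the 5′ side of the gene.

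The XUTs were mostly below the gene that holds them, as were those of the other placements with an opposite gene. The ratio is the density of the XUT over that of the gene, and 1 factor per library cancels in it. Its median on the log2 scale was -2.94 and -2.89 in IP replicates 1 and 2. In IP libraries the XUT had the lower density of the pair in both replicates in 680 cases and the higher in both in 48. In the fit of limma over all 1133 XUT-gene pairs tested (log2 of normalized reads plus 0.318, Benjamini-Hochberg adjustment), 562 of the 690 tested XUTs inside genes (81.4%) were below the gene, a share near the 78.4% of all pairs. Above the gene were 29, which is 4.20% of the 690, beside 7.24% of all pairs. The remaining 64 XUTs, with reads in fewer than 2 libraries, were not tested. Of the 29, 26 share their strand with another feature. The 3 that do not are opposite *puf5*, *efm3* (a protein methyltransferase) and *mug133*.

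**Figure D3:**
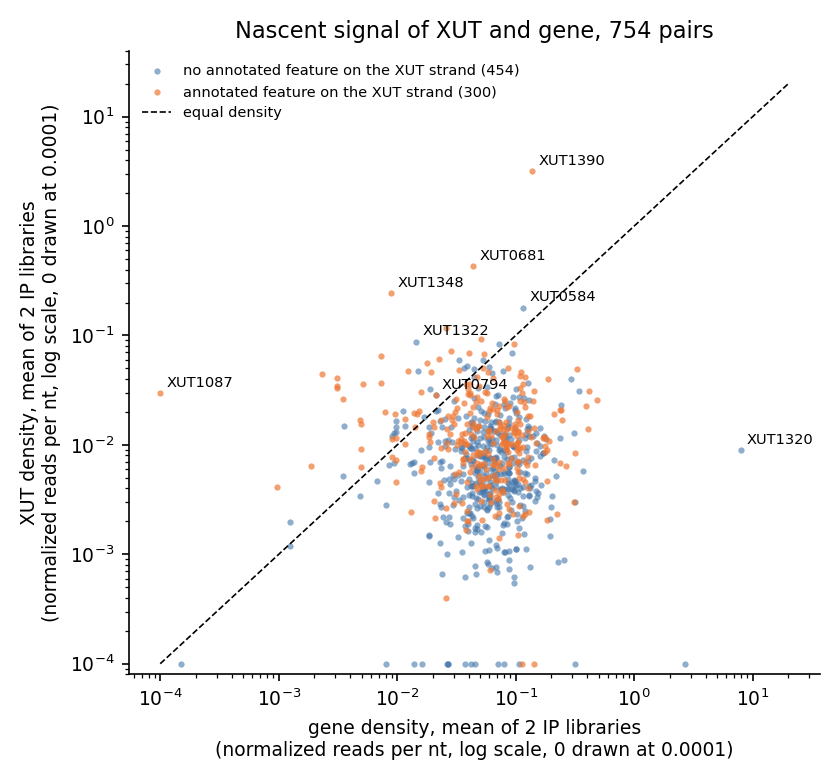
Each point is a pair, with the density of the gene (x axis) and of the XUT (y axis) in normalized reads per nt, as the mean of 2 IP libraries on log scales. Blue points are the 454 XUTs with no other annotated feature on their strand, orange points the 300 with one, and the dashed line marks equal density. Most points lie below the line, and 2 of the labelled points above it (XUT1390 and XUT0681) hold a tRNA gene.

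At the model locus of the study, the XUT was at about the density of its gene. *XUT0794* covers 815 nt of the 2212 nt of *ctt1*, all of them opposite coding sequence. It had 22 and 52 reads in the IP and 6 and 7 in the input, and *ctt1* had 44 and 104 in the IP and 39 and 27 in the input. Per nt, the XUT was 1.36-fold the gene in IP replicate 1 (95% counting interval 0.775 to 2.31) and 1.36-fold in replicate 2 (0.954 to 1.91). It was 0.418-fold (0.145 to 0.993) and 0.704-fold (0.259 to 1.66) in the input. The log2 ratio in the IP was 0.45 (SE 0.35, limma adjusted p = 0.234), so XUT and gene were not told apart. Between IP and input the ratio differed by 1.18 on the log2 scale (SE 0.49, adjusted p = 0.192), which did not pass the test. No other annotated feature lies on the strand of *XUT0794*.

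Among the pairs with the highest ratio, the gene was often one with few reads. The gene is the denominator of the ratio, so the ranking itself favours such genes. *XUT1348* is opposite *meu31*, a gene named for its induction in meiosis, and shares its strand with the ncRNA gene *SPNCRNA.710*. It had 271 and 790 reads in the IP and 44 and 34 in the input, while *meu31* had 13, 36, 12 and 2. The XUT was above the gene in all 4 libraries, with a log2 ratio of 4.74 in the IP (SE 0.35, limma adjusted p = 7.53e-08). *XUT1508*, opposite a glucosidase gene (*SPAC4H3.03c*), had 133 and 182 IP reads, beside 17 and 55 of the gene, for a log2 ratio of 3.11. *XUT0213* opposite *cta3* (a calcium-transporting ATPase) had 124 and 269 IP reads, beside 29 and 42, for a log2 ratio of 2.84. Both share their strand with an ncRNA gene or nc-TU, and limma called both ratios (adjusted p = 1.40e-05 and 7.97e-07).

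The gene of *XUT1087*, *rem1* (a meiotic cyclin), was listed at 0 in all 4 libraries, while the XUT had 23 and 34 IP reads and 10 and 6 input reads. Against a limit of 3 reads for the gene in each library, the XUT was at least 16.1-fold higher in IP replicate 1 and at least 23.8-fold in replicate 2. *XUT1087* was chosen after its values were seen. It shares its strand with *SPNCRNA.1481* and *SPNCRNA.571*.

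*XUT1322* has the highest ratio of the 3 with no other feature on the strand. It lies near the middle of *puf5*, with 2160 nt between its end and the gene start. It had 96 and 176 reads in the IP and 44 and 33 in the input, and *puf5*, with 4800 nt, had 69 and 146 in the IP and 38 and 39 in the input. Per nt, the XUT was 6.55-fold (4.76 to 9.06) and 5.68-fold (4.53 to 7.12) the gene in the IP, and 5.45-fold (3.45 to 8.65) and 3.99-fold (2.43 to 6.50) in the input. The log2 ratio in the IP was 2.61 (SE 0.27, limma adjusted p = 1.56e-06). *XUT0666* opposite *efm3* had 38 and 82 IP reads beside 50 and 130 of the gene, with a log2 ratio of 1.68 (adjusted p = 1.84e-04). *XUT0582* opposite *mug133* had 6 and 25 beside 8 and 22, with a log2 ratio of 2.02 (adjusted p = 0.00324).

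Other XUTs of high IP density had ratios around or above 1. *XUT0923* opposite *imt2* (a mannosyltransferase) had 112 and 223 IP reads, beside 156 and 296 of the gene, with a log2 ratio of 0.87. *XUT0171* opposite *ght4* had 84 and 109 beside 116 and 214, with a log2 ratio of 1.31. *XUT1235* opposite *mrpl3* (a mitochondrial ribosomal protein) had 22 and 52 beside 106 and 201, with a log2 ratio of 0.22. limma called the first 2 of these ratios (adjusted p = 0.00863 and 6.87e-04) and not that of *XUT1235* (0.562). For *XUT0579* opposite *pof14* (an F-box protein) the replicates disagree, with 53 reads in IP replicate 1 and 14 in the deeper replicate 2, and a log2 ratio of 3.00 and 0.06.

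At the other end, among pairs with 10 or more reads of XUT and gene in each IP library, the lowest ratio was that of *XUT1377* opposite *hcr1* (translation initiation factor eIF3j). It had 10 and 11 IP reads, beside 254 and 450 of the gene, a log2 ratio of -3.99. *XUT1147* opposite *SPBC32F12.07c* (a ubiquitin ligase), *XUT0099* opposite *nup211* (a nucleoporin), *XUT1354* opposite *ogm1* (a protein mannosyltransferase) and *XUT0483* opposite *SPAC24H6.10c* (an aldolase of aromatic amino acid synthesis) had log2 ratios between -3.93 and -3.52. All 5 ratios passed the test (limma adjusted p from 3.53e-07 to 1.35e-05). The genes of these pairs had 254 to 780 reads in IP replicate 1. With 10 or more XUT reads required, a ranking by low ratio itself favours genes with many reads.

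Summed over the regions, the XUTs took a larger share of the reads in the IP than in the input. For this sum, 4 pairs were left out because a tRNA or other small RNA gene lies in the XUT or on the strand of the gene. The remaining 750 XUTs had 5.75 and 5.97 reads per 100 reads of their genes in the IP, and 3.67 and 3.61 in the input. The share was thus 1.57-fold and 1.65-fold higher in the IP within replicates 1 and 2, and the IP and input values do not overlap (mean 5.86, SD 0.16, against 3.64, SD 0.042, n = 2 each). With 2 libraries against 2, an exact permutation test cannot go below the two-sided p of 0.333 that it gave. Without the 10 XUTs with the most reads, the share was 4.59 and 4.67 in the IP and 2.87 and 2.84 in the input. Over the 453 XUTs with no other feature on their strand it was 3.18 and 3.34 against 1.65 and 1.60.

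For XUTs across a gene start, the same sum gave 14.7 and 15.1 in the IP and 10.9 and 11.0 in the input, a ratio of 1.36 and 1.38. For those across only a 3′ end it gave 18.2 and 19.3 against 15.3 and 15.7, a ratio of 1.19 and 1.23, or 1.52 and 1.67 without the 10 XUTs with the most reads. The differences of these ratios between placements were not tested.

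**Figure D4:**
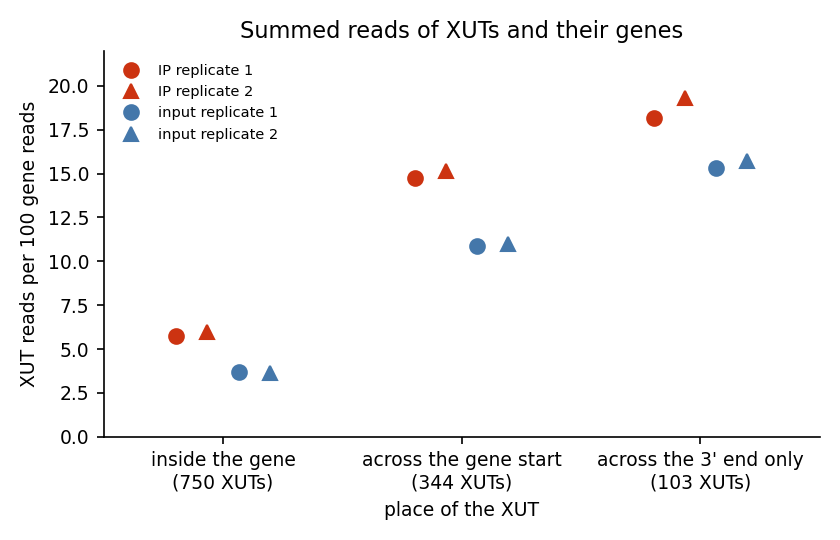
The y axis gives the summed XUT reads per 100 summed reads of their genes, for XUTs inside the gene, across the gene start and across only the 3′ end (x axis), in IP (red) and input (blue) libraries, circles for replicate 1 and triangles for replicate 2. XUTs inside genes lie at 5.75 and 5.97 in the IP and 3.67 and 3.61 in the input.

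Single pairs seldom passed the test of this difference. In limma's contrast of the log2 ratio, IP minus input, 13 of the 690 XUTs inside genes had a higher ratio in the IP, beside 2.47% of all 1133 pairs, and 8 a lower one, beside 1.24%. Both shares, 1.88% and 1.16%, are near those over all pairs. The 13 include *XUT1320*, where nearly all reads listed for the gene are in number those of a tRNA gene. The 8 include *XUT0681*, where this holds for the reads of the XUT. Such pairs were left out of the summed reads but not of these counts. Of the 13 higher, 6 have a read in both inputs, 2 in 1 input and 5 in none. These 5 are among 88 of the 690 that were admitted by their IP reads alone, so that the test is no evidence for them and the count is a description. In the paired fit with the replicate number as a block, 5 were higher and 3 lower. Without IP replicate 1 or 2, 6 and 8 were higher and 19 and 59 lower, and without input replicate 1 or 2, 3 and 3 were higher and 1 and 2 lower. Shares over all pairs are not given for these refits, so their counts show only how far the calls move. In edgeR on the recovered reads of the XUT, with the reads of the gene as offset, 21 of 426 were higher, beside 5.63% of 746 pairs, and 3 lower, beside 0.938%. limma and edgeR share 12 of the higher and 2 of the lower calls. Of the 13 higher, 10 have no other feature on their strand.

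*XUT0584* stood out in this comparison. It covers 767 nt of *ifa38*, the gene of a ketoreductase of fatty acid elongation. It had 117 and 334 reads in the IP and 5 in each input, while *ifa38* had 150 and 339 in the IP and 160 and 134 in the input. Per nt, the XUT was 1.37-fold and 1.72-fold the gene in the IP and 0.0547-fold and 0.0653-fold in the input, so that the ratio was 25.0-fold and 26.4-fold higher in the IP within replicates 1 and 2. The log2 difference was 4.44 (SE 0.42, limma adjusted p = 1.43e-05) and 4.68 in edgeR (adjusted p = 6.48e-08). No other annotated feature lies on its strand.

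The next pairs rest on inputs with few or no XUT reads. *XUT0672* opposite *slt1* had 29 and 53 IP reads and none in either input, while *slt1* had 141 and 297 in the IP and 109 and 78 in the input. With 3 reads allowed in each input library, the ratio was at least 7.47-fold higher in the IP in replicate 1 and at least 4.64-fold in replicate 2. *XUT0254* opposite *mis19* had 11 and 31 IP reads and none in the input, beside 27, 62, 20 and 22 of the gene, so that the ratio was at least 2.72-fold and at least 3.67-fold higher. Both XUTs were seen in each IP library and in no input library. They passed the filter through the IP alone, so no p is given for them.

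*XUT1309* opposite *psf3* (a subunit of the GINS replication complex) had 42 and 62 IP reads, and 2 and 1 in the input. Per nt it was 1.10-fold the gene in IP replicate 1 (0.746 to 1.58) and 0.676-fold in replicate 2 (0.503 to 0.896). The gene had 102, 244, 45 and 45, and the ratio was 9.27-fold and 11.4-fold higher in the IP (adjusted p = 0.0118). *XUT0722* opposite *pmc3* had 26 and 57 IP reads, and 4 and 0 in the input, beside 101, 123, 65 and 40 of the gene (adjusted p = 0.0139). *XUT0355* opposite *taf73* had 26 and 38 IP reads, and 0 and 1 in the input, beside 161, 312, 73 and 44 (adjusted p = 0.0473). *XUT1309* and *XUT0355* share their strand with an ncRNA gene. With the replicate block *XUT1309* was still called (adjusted p = 0.0477), while *XUT0722* (0.0744) and *XUT0355* (0.121) were not. Leaving out 1 library ended the call of *XUT1309* in 3 of 4 cases (adjusted p = 0.255 without IP replicate 1, 0.0630 and 0.105 without input replicate 1 and 2) and that of *XUT0722* in 3 of 4 (0.0562 without IP replicate 2, 0.0504 and 0.149 without input replicate 1 and 2). That of *XUT0355* ended in all 4 (0.0635 to 0.342).

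**Figure D5:**
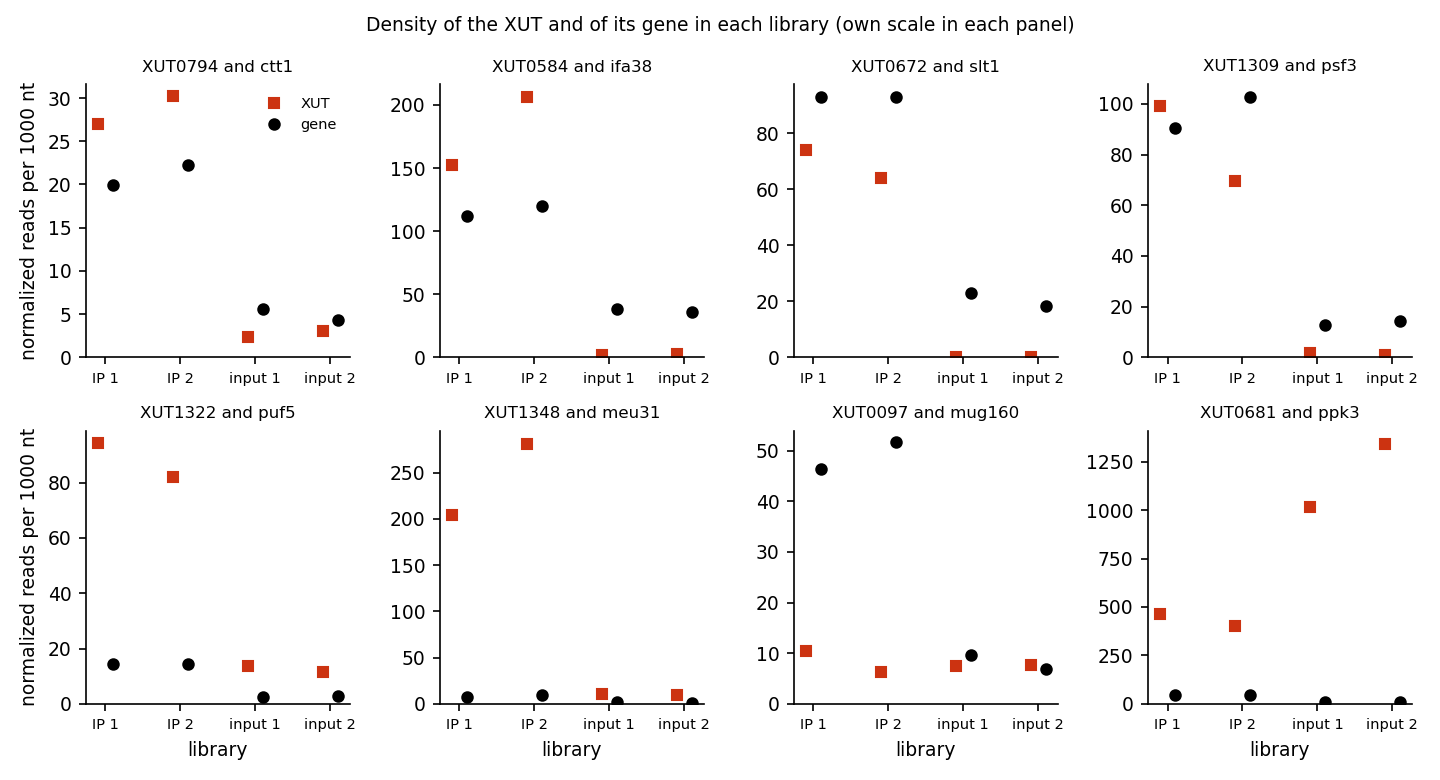
Each panel gives 1 pair on its own scale, with the density in normalized reads per 1000 nt (y axis, from 0) of the XUT (red squares) and of the gene (black circles) in each library (x axis). Opposite *ifa38*, *slt1* and *psf3* the XUT is near the gene in the IP and near 0 in the input, opposite *mug160* it lies at 0.23-fold and 0.12-fold the gene in the IP and at 0.778-fold and 1.11-fold in the input, and the XUT opposite *ppk3* holds a tRNA gene.

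The largest change of the ratio by value belongs to *XUT1320* opposite *lcp1* (an L-type cyclin). The XUT had 4 and 5 reads in the IP and 1 in each input. The gene was listed with 10657 and 20843 reads in the IP and 530066 and 501132 in the input. The tRNA gene *SPATRNAGLU.01* on the same strand as *lcp1* has 10592 and 20690 in the IP, and 530033 and 501124 in the input, which leaves few reads of *lcp1* outside the tRNA gene.

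In the other direction, *XUT0681* with its tRNA gene had the log2 difference with the smallest p, -3.65 (SE 0.38, limma adjusted p = 3.41e-05). *XUT0097* opposite *mug160*, a gene named for its rise in meiosis, had 16 and 20 reads in the IP and 36 and 33 in the input, beside 90, 212, 59 and 38 of the gene. Its log2 difference was -2.47 (SE 0.48, adjusted p = 0.00834) and -2.51 in edgeR (adjusted p = 0.00102), with no other feature on its strand. *XUT0097* was chosen after its values were seen, as the second of the 2 lower calls that limma and edgeR share. *XUT0867* opposite *rec11* (a meiotic cohesin subunit) had 17 and 30 reads in the IP and 15 and 9 in the input, beside 68, 162, 5 and 6 of the gene, a log2 difference of -3.16 (adjusted p = 0.00186). The call ended without input replicate 1 (-2.71, adjusted p = 0.0630). *XUT0581* opposite *rnh201* (RNase H2), *XUT0821* opposite *ins1* and *XUT1070* opposite *mug124* had at most 2 reads in each library, and their calls rest on these. With the replicate block, adjusted p was 0.0528 for *XUT0097*, 0.0528 for *XUT0581* and 0.104 for *XUT1070*, so that none was called. *XUT0821* has no IP read and passed the filter through the input alone, so no p is given for it. Without input replicate 1 or 2 it was 0.0713 and 0.148 for *XUT0097*, 0.212 and 0.349 for *XUT0581* and 0.288 and 0.332 for *XUT1070*, which also missed the threshold without IP replicate 1 (0.157).

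Taken without the gene, IP against input depends on the scale of the libraries. On the deposited scale, limma placed 542 of the 690 tested XUTs inside genes higher in the IP, beside 91.6% of all 8651 features, and 1, *XUT0681*, lower, beside 1.43%. Without IP replicate 1 or 2, 349 and 360 were higher and 3 and 9 lower. Shares over all features are not given for these refits. On the deposited scale the median protein-coding gene itself has a log2 IP over input of 2.39, and the XUTs have a median of 2.40. This near-equality depends on the setting. The XUT median was 3.24 beside 2.41 for genes with a pseudocount 10 times smaller, and 0.94 beside 2.23 with one 10 times larger. It was 0.75 beside -0.04 in edgeR, over the 284 XUTs tested there, and 0.59 beside -0.03 in DESeq2. After centring each library on the median gene, 33 XUTs were higher, beside 9.58%, and 17 lower, beside 16.4%. edgeR with TMM called 60 of 284 higher, beside 15.5% of 7097 features, and 7 lower, beside 19.2%. Of the 33, 26 have no other feature on their strand. No input read fell on 88 of the 542 and 10 of the 33, which were admitted by their IP reads alone. Among the 5 XUTs with the largest change on the deposited scale, *XUT0584*, *XUT0355* and *XUT1309* had log2 values of 6.09, 5.57 and 5.47 (limma adjusted p = 2.60e-06, 2.09e-05 and 6.11e-06), or 3.61, 3.09 and 2.99 after centring. The others, *XUT0672* and *XUT0254*, have no input read, and their fitted values are set by the pseudocount. With a pseudocount 10 times smaller and 10 times larger, that of *XUT0672* was 9.73 and 3.25, that of *XUT0254* 8.65 and 2.32, that of *XUT0355*, with 1 input read, 7.61 and 2.89, that of *XUT1309* 6.11 and 3.38 and that of *XUT0584* 6.31 and 4.84, so the order among the 5 is not fixed. Of the 17 lower calls, 9 have fewer than 3 reads in each IP library.

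Several XUTs can lie in 1 gene. Of the 641 genes, 553 hold 1, 68 hold 2, 15 hold 3 and 5 hold 4. In 15 of the 20 genes with 3 or more, every XUT was below the gene in the IP. The genes with 4 are *msh3* (mismatch repair), where the log2 ratios ran from -5.73 to -4.21, *ria1* (a GTPase; -4.97 to -2.94), *SPCC550.07* (an amide hydrolase; -3.64 to -2.40), *alr1* (alanine racemase; -2.51 to -0.43) and *htr11* (a serine protease; -1.49 to 0.05). Every XUT was above the gene in *SPBC23G7.13c* (a urea transporter; 3.33 to 3.68), *SPBPB2B2.01* (an amino-acid permease; 0.70 to 0.87) and *meu10* (a GPI-anchored protein; 0.55 to 1.65). The 3 XUTs of *SPBC23G7.13c* had 16 to 19 reads in IP replicate 1 and 36 to 64 in replicate 2, beside 8 and 14 of the gene. All 3 share *SPNCRNA.1488* on their strand, so they are not separate observations.

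The longest and the shortest of these XUTs also differ in depth. *XUT0051*, which covers nearly all of *mug190*, had 288 and 561 reads in the IP and 164 and 110 in the input, beside 102, 222, 94 and 90 of the gene, a log2 ratio of 1.45 in the IP (limma adjusted p = 8.90e-05). It shares its strand with a pair of nc-TUs. *XUT0833* had 1 read in IP replicate 1 and none in the other libraries, beside 315 and 669 IP reads of *xks1*, and was not tested.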

How the data were processed

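NET-Seq IP and input libraries of 2 biological replicates of *exo2*Δ Rpb3-flag cells were analysed, grouped by the labels. The authors removed the adapter, mapped reads that align uniquely with Bowtie to ASM294v2, and deposited a table of features. IP replicate 1 holds whole-number counts as deposited, and the other libraries a signal, deposited by the authors as counts multiplied by 1 factor per library, whose basis is not given in the sources used here. After division by the step of its library, 100% of the values were whole reads (tolerance 0.01). Positions were checked against the RefSeq genome: 5113 of 5119 coding sequences have a start codon, a stop codon and whole codons there.

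limma 3.58.1 with trend was fitted to log2(normalized reads + 0.318) over 8651 features, and to log2 XUT to gene density ratios over 1133 pairs, keeping those seen in at least 2 libraries, with calls at an adjusted p of 0.05. Fold changes on this scale understate those of features with few reads. edgeR 4.0.16 and DESeq2 1.42.0 were run on the recovered reads. The titles link IP and input by a shared replicate number, which the replicate block uses. The replicate differences of both correlate with r = 0.152 over 4644 genes. Alternatives were other pseudocounts and filters, leaving out each library, the replicate block, no trend, centred libraries and fewer XUTs. The XUTs and lists were chosen with earlier results of these data known. Named are *XUT0794*, XUTs of highest IP density, of highest and lowest ratio to the gene, of largest and smallest change between IP and input (up to 10 per list), the longest and the shortest, and genes with 3 or more XUTs. Columns that pool replicates were not used.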

Additional observations from a re-analysis of the deposited data

How the results depend on the processing

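The number of XUTs higher in the IP on the deposited scale was 542, between 349 and 463 without each library, 33 with centred libraries, 60 in edgeR, 15 in DESeq2 and 303 over XUTs with no other feature on their strand. The number lower was 1, between 1 and 9 without each library, 2 with a smaller pseudocount, without the filter or without trend, 17 with centred libraries, 7 in edgeR, 5 in DESeq2 and 0 without XUT1390 and XUT0681 or with no other feature on the strand. XUTs above the gene numbered 29 (23 to 33 without each library), 56 with a larger pseudocount and 3 with no other feature on the strand. XUTs below numbered 562 (500 to 575 without each library), 353 with 10 or more reads and 348 with no other feature on the strand. A ratio higher in the IP was called for 13, for 3 to 8 without each library, 1 with a smaller pseudocount, 6 without the filter, 5 with the replicate block, 4 without trend and 21 in edgeR. A lower ratio was called for 8, for 1 to 59 without each library, 0 and 461 with a smaller and a larger pseudocount, 3 with the block, 3 without trend, 3 with no other feature on the strand and 3 in edgeR. The count of 0 with the smaller pseudocount is from limma, where 15 had an unadjusted p under 0.05, and those of 0 lower in the IP are from limma too, with 0 at an unadjusted p under 0.05. The main pseudocount of 0.318 equals 1 read of input replicate 1. A read counts 0.357 in input replicate 2, 0.474 in IP replicate 2 and 1 in IP replicate 1. The main pseudocount thus raises the ratio of XUTs with few reads by construction, most in the input. A pseudocount 10 times larger exceeds the value of an input read, and raises the input ratio further. For IP against input, DESeq2 tested 745 of the XUTs. Shares over all features or pairs are given for the main fits, the centred libraries and edgeR only.

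The median nascent level was -7.13, or -6.99 and -6.93 without replicate 1 and 2, -6.92 with the larger pseudocount, -5.42 with 10 or more reads, -7.39 as a mean, -7.18 with no gene and -7.54 with no feature on the strand, and -3.58 with centred libraries. The median log2 ratio in the IP was -2.96, or -2.89 to -2.94 without each replicate, -3.14 and -1.97 with a smaller and a larger pseudocount, -1.12 with 10 or more reads, -2.77 as a mean, -3.08 with no gene and -3.26 with no feature on the strand, and -3.17 over coding sequence. In the input it was -2.77, or -2.77 to -2.76 without each replicate, -4.16 and -0.52 with a smaller and a larger pseudocount, -2.20 with 10 or more reads, -2.55 as a mean, -2.86 with no gene and -2.97 with no feature on the strand, and -3.04 over coding sequence. The input median lies above that of the IP with the main and the larger pseudocount, and below it with the smaller one (-4.16 against -3.14). The order of these medians is thus set by the pseudocount. The summed reads, which need none, lie below in the input. The paired fit with the replicate block called 533 XUTs higher and 1 lower in the IP, and 29 above and 564 below the gene. Of the values of single named XUTs under these alternatives, 277 kept their side of the threshold, 37 lost a call, 1 gained one and none reversed.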
